A study of Homo sapiens with 2 samples.

Results

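This account covers nuclear receptor genes, other than those of the HNF4 and NR4A subfamilies, together with genes of their coregulators, in a human hepatocellular carcinoma (HCC) cell line with and without added miR-130b. A list of 42 genes was given, and a gene's probe sets were taken where the array's annotation gave that symbol and no other. This found 120 probe sets for 34 of the 42 genes, out of 41091 probe sets for 19775 genes on the array. No probe set of their own was found for NR0B1, NR1D1, NR1H2, NR1H4, NR1I2, NR2F2, NCOA3 and NCOR1, which were not analysed here.

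Both samples were PLC8024 cells, a line derived from a human liver tumour, sorted by flow cytometry for the absence of CD133, a surface marker of tumour-initiating cells. The control culture was transduced with a lentivirus carrying an empty vector and the other with a lentivirus carrying miR-130b, a microRNA, which lowers the level or translation of transcripts it pairs with. The source label of the second sample speaks of transfection, whereas the treatment protocol of both samples speaks of lentiviral transduction. Each condition had 1 array of total RNA, from 1 cell line, so no difference was tested, no replicate error exists, and every difference is one between these 2 arrays. The comparison asks which of these transcripts differed when miR-130b was overexpressed in the CD133-negative fraction. PROM1, the gene of the sort marker CD133, stood at 9.19 with the empty vector and 6.07 with miR-130b on the log2 scale, so in the control culture, labelled CD133-negative, it lay above the 75th percentile of all probe sets, 6.98. All 9 hepatocyte marker genes examined, among them ALB, AFP and APOA1, were above the median of all probe sets in both arrays, with ALB and TTR lower by at least 1.5-fold with miR-130b.

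Nuclear receptors are transcription factors, most of which are switched by small fat-soluble ligands such as steroids, retinoic acid, thyroid hormone, bile acids and fatty acids. Most bind short DNA half-sites through zinc fingers, many of them as heterodimers with a retinoid X receptor. They recruit coactivators such as the NCOA proteins or corepressors such as NCOR1 to change transcription. In hepatocytes they govern bile acid, lipid, glucose and drug metabolism, and several of them take part in liver development and liver cancer.

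The array values are log2 expression values after RMA, which subtracts background, gives arrays a shared distribution and joins the probes of a set. Differences are the miR-130b value minus the empty vector value, in log2 units. Where a gene had several probe sets, the one with the highest mean over both arrays, called the leading probe set, stands for the gene. Rules of size were 1.5-fold, 0.58 on the log2 scale, and 2-fold. As a technical yardstick, probe sets of the same gene scattered around their gene's mean difference with a pooled SD of 0.215 over 10523 genes. This SD holds no variation between cultures. The median over all non-control probe sets, 4.88, is used below to mark dim values, whose folds RMA compresses. A level of 1 probe set is not comparable with that of another.

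Across the 34 genes, 2 were lower by at least 1.5-fold with miR-130b, NR2F1 and NCOA2, and 0 were at least 1.5-fold higher. Over all 19775 genes, 1.91% were at least 1.5-fold lower and 0.212% at least 1.5-fold higher. NR2F1 alone was at least 2-fold lower, which 1.03% of all genes were. NR5A2 came next, with all 4 of its probe sets lower. The other 31 genes lay between -0.30, for RXRA, and 0.30, for PPARA. The median difference of the 34 genes was 0.05, against 0.03 for all genes, and the median absolute difference was 0.117 against 0.114. The typical size of a difference was thus close to that over all genes. Counted by probe set, 2 of 120 were at least 1.5-fold lower, where 1.83% of all probe sets were, and 0 were at least 1.5-fold higher, where 0.241% were. The genes were chosen with earlier results of these data known, so these comparisons with the whole array are descriptive only.

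**Figure D1:**
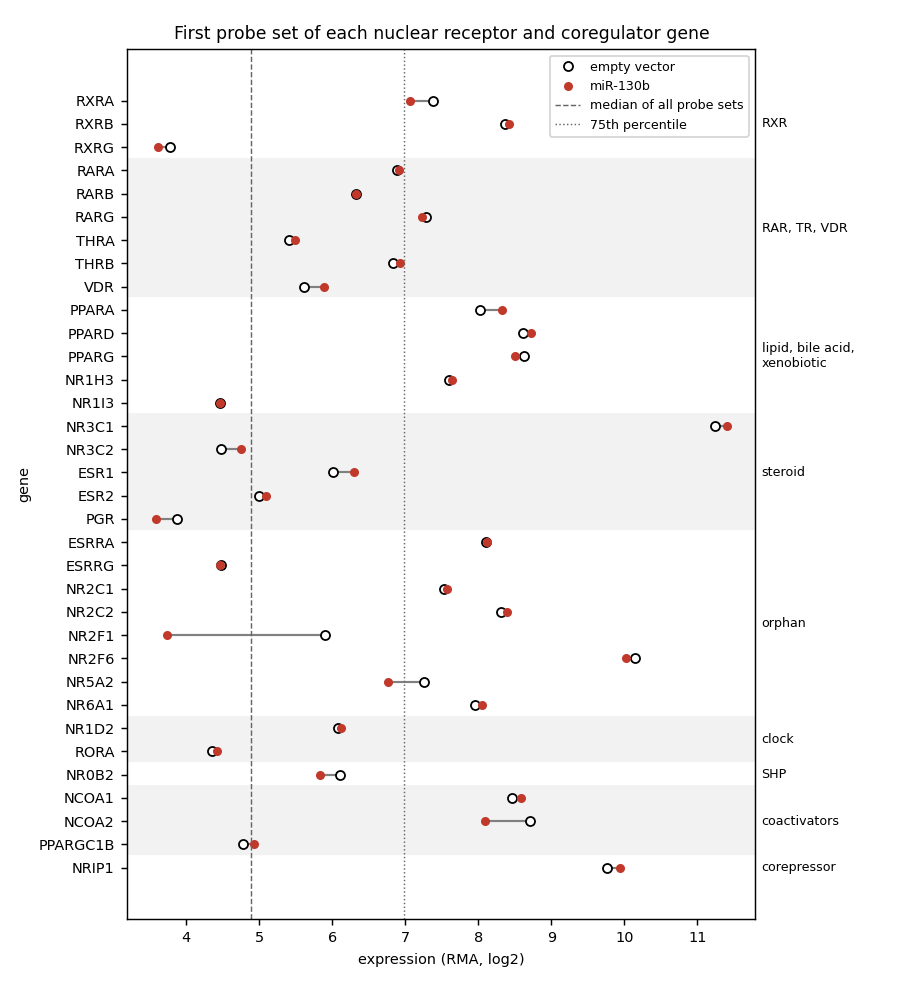
Expression (RMA, log2) of the leading probe set of each of 34 genes in the empty vector array (open circles) and the miR-130b array (red circles), 1 array each, with the median and the 75th percentile of all probe sets as vertical lines. The long line belongs to NR2F1, which stands at 5.90 and 3.73, on either side of the median; NCOA2 and NR5A2 have the next longest gaps.

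The 5' flanks of NR2F1 and NR5A2 are shown because these are the lower receptors with the largest differences, and because nuclear receptors bind half-sites that can be looked for there. Sequences are those of RefSeq on GRCh38.p14, 250 bases before each annotated start, 5' to 3' on the plus strand, with capitals marking any of 4 half-site spellings on either strand. The classical half-site AGGTCA was searched, then the variant spelling AGTTCA, and both of these with a leading G, GGGTCA for the classical one and the spelling GGTTCA for the other. NR2F1 has 2 annotated starts, with flanks at chr5:93582972-93583221 and chr5:93586849-93587098, and NR5A2 has 2, with flanks at chr1:200027460-200027709 and chr1:200042341-200042590.
NR2F1 start 1: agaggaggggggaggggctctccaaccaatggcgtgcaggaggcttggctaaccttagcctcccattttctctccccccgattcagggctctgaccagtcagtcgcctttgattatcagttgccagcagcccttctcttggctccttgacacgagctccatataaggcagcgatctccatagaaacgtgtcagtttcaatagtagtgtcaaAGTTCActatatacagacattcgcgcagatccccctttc
NR2F1 start 2: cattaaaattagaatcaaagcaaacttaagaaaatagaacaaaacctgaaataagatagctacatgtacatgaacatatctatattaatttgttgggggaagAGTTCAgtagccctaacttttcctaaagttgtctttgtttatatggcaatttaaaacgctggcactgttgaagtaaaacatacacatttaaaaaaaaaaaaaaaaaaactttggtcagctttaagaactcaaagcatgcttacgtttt
NR5A2 start 1: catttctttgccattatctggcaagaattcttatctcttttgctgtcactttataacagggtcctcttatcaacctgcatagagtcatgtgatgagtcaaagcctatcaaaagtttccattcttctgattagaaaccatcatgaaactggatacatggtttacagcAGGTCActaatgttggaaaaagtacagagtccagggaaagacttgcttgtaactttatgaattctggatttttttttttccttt
NR5A2 start 2: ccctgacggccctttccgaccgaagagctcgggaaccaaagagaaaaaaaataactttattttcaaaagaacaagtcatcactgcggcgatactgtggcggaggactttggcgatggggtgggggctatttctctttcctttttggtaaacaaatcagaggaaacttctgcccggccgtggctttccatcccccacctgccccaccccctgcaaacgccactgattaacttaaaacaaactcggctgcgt
Each NR2F1 flank holds 1 AGTTCA, beginning 39 and 148 bases before the start. The flank of the first NR5A2 start holds 1 AGGTCA, beginning 84 bases before it, and that of the second holds none of the 4 spellings in this window. No match shown overlaps another, and a match is a description of the sequence, not a bound site. Among 35116 flanks of the same length, 33.8% hold at least 1 of the spellings, 12.1% hold AGGTCA and 8.80% hold AGTTCA. Of the 42 listed genes, 38 are in that promoter table with 92 starts, of which 35, or 38.0%, hold at least 1. The base composition of the flanks differs, with 52.4% and 29.2% G or C for NR2F1 and 36.0% and 50.8% for NR5A2. NCOA2, VDR, NR2F6 and NR0B2 are not in the table.

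NR2F1 encodes COUP-TFI, an orphan receptor that binds direct repeats of the half-site and often represses transcription, and it is known for roles in neural development and in tumour cell dormancy. Its single probe set stood at 5.90 with the empty vector and 3.73 with miR-130b. Only the control value lies above the median of all probe sets, so the difference of -2.16 carries no exact fold. With the miR-130b value raised to that median, 4.88, the difference was -1.02, or 2.03-fold lower. The median marks dim values and is no limit of detection. The result rests on 1 probe set, with no second one to compare it with.

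Other cell types express NR2F1 too, stromal cells among them, so their markers are given beside it. Of 7 stromal markers, 1 was at least 1.5-fold lower in its leading probe set, the collagen gene COL1A2, which stood at 7.98 with the empty vector and 4.90 with miR-130b. The leading probe set of a second collagen gene, COL1A1, has a name suffix that marks possible cross-hybridisation and differed by -0.08. The 4 other COL1A1 probe sets differed by 0.38, -0.88, -1.68 and 0.07, the third of them at 5.08 and 3.40, so they had no common direction. The leading probe sets of PDGFRB, at 5.44 and 5.36, and DCN, at 5.15 and 5.07, were above the median of all probe sets in both arrays. Each differed by -0.08. The leading DCN probe set has the same suffix as that of COL1A1. All DCN probe sets without a suffix were below the median of all probe sets in both arrays, the brightest at 4.255 in each. The summed level of the 7 leading probe sets, on the linear scale, was 534 with the empty vector and 288 with miR-130b, a gap that comes mostly from COL1A2. COL3A1, LUM and ACTA2, which mark fibroblasts and myofibroblasts, were below the median of all probe sets in both arrays. Of 4 endothelial and 3 measured leukocyte markers, 0 were beyond 1.5-fold. Summed levels were 414 and 467 for the endothelial and 64.1 and 64.5 for the leukocyte markers. Of these markers only PECAM1, at 8.51 and 8.72, was above the median of all probe sets. PECAM1 contributes most of the endothelial sum, and its 5 probe sets had no common direction. Of 4 epithelial markers, KRT8, EPCAM and CDH1 were lower by at least 1.5-fold, with EPCAM at 4.09 with miR-130b, below the median of all probe sets. KRT18, at 13.49 and 13.22, differed by -0.27. The only probe sets of KRT8 and KRT18 have the cross-hybridisation suffix. A second CDH1 probe set, below the median of all probe sets at 3.87 and 3.84, differed by -0.03. The summed level of all 4 epithelial markers, to which KRT18 contributes most, was 14583 in the empty vector array against 11025. The 3' to 5' ratio of the ACTB control transcript, a sign of RNA integrity, was 1.95 with the empty vector and 2.41 with miR-130b. For the GAPDH control transcript it was 1.37 and 1.52. The part of these in the NR2F1 value and in the other differences was not tested. In bulk RNA, fewer cells with a transcript and less of it per cell cannot be told apart.

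NR5A2 encodes LRH-1, a receptor of liver, pancreas and intestine that binds DNA as a monomer and drives bile acid and cholesterol genes and, with beta-catenin, cell cycle genes. Its leading probe set stood at 7.25 with the empty vector and 6.76 with miR-130b, a difference of -0.49. The other 3 probe sets read 5.79 and 5.46, 5.38 and 5.07, and 3.53 and 3.21, in the same order of arrays, with differences of -0.33, -0.31 and -0.32. The dimmest of these lay below the median of all probe sets in both arrays. All 4 were therefore lower by a similar amount, and none reached 1.5-fold.

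NCOA2 encodes a p160 coactivator, also called GRIP1 or TIF2, that binds the ligand-bound face of many receptors and brings in acetyltransferases. Its leading probe set stood at 8.71 with the empty vector and 8.09 with miR-130b, a difference of -0.62, or 1.54-fold. The 3 others differed by -0.31, -0.33 and -0.29, the brightest of them at 6.04 and 5.73 and the dimmest at 4.16 and 3.87. The direction was shared by all 4 probe sets, but only the leading one passed 1.5-fold, and with the mean of the 4 the difference was -0.39. Among all 1393 genes with 4 probe sets, 6, or 0.431%, had every probe set lower by at least 0.25, a limit chosen after the values were seen. These 6 were NCOA2, NR5A2, the FK506-binding protein gene FKBP1A, the histone demethylase gene KDM6A, the actin-associated gene PALLD and the metalloproteinase inhibitor gene TIMP3.

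**Figure D2:**
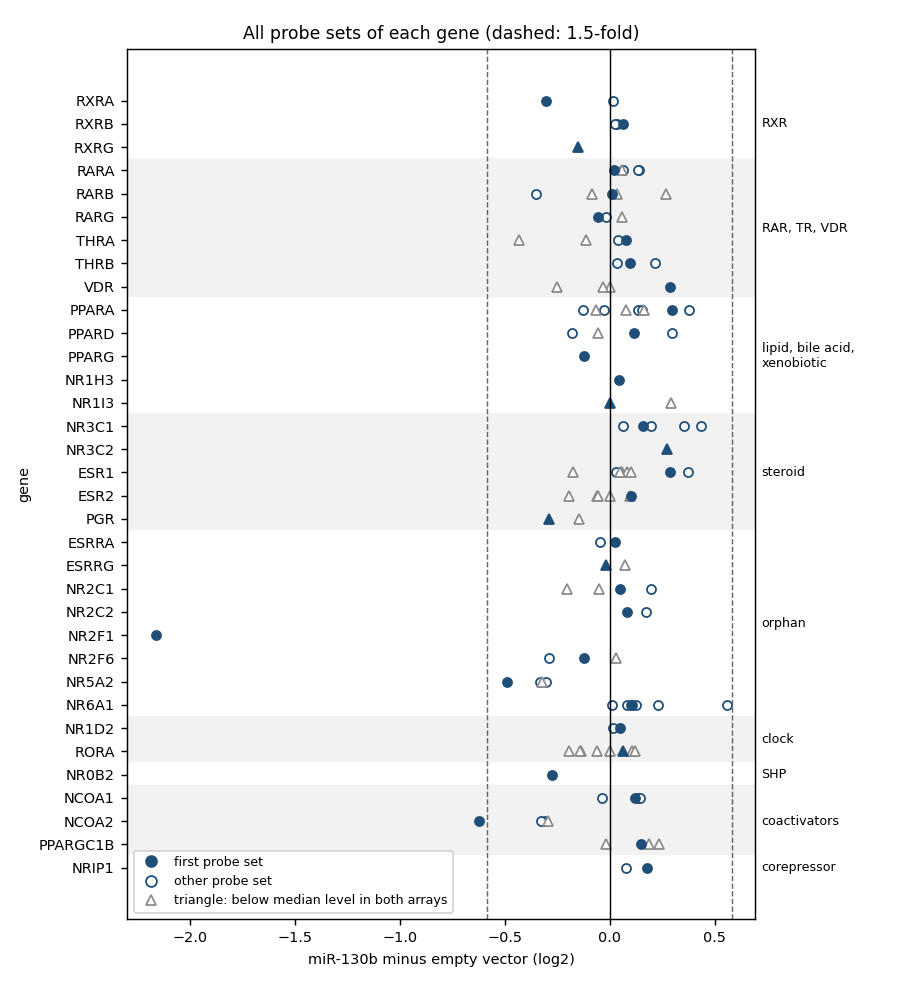
Difference (miR-130b minus empty vector, log2) of all 120 probe sets of the 34 genes, with the leading probe set filled, the others open, and triangles for probe sets below the median level in both arrays; dashed lines mark 1.5-fold. All 4 probe sets of NR5A2 and of NCOA2 lie left of 0, while all 5 of NR3C1 and all 7 of NR6A1 lie right of it.

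The other coactivator genes were slightly higher. NCOA1, a p160 coactivator like NCOA2, read 8.47 with the empty vector and 8.59 with miR-130b in its leading probe set. Its 4 probe sets differed by 0.12, -0.04, 0.13 and 0.14. NCOA1 and NCOA2 thus had opposite signs in their leading probe sets. That of NCOA1 has the cross-hybridisation suffix, and its difference is smaller than the pooled SD of 0.215. PPARGC1B, a coactivator of mitochondrial and fatty acid genes, read 4.78 and 4.92, close to the median of all probe sets, and its 4 probe sets differed by between -0.02 and 0.23. Of the corepressors only NRIP1 could be read. NRIP1, which encodes RIP140, a repressor that binds ligand-activated receptors, stood at 9.77 with the empty vector and 9.94 with miR-130b, and its 2 probe sets differed by 0.18 and 0.08.

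The retinoid X receptors, the shared partners of most non-steroid receptors, gave no common direction. RXRA stood at 7.37 with the empty vector and 7.07 with miR-130b in its leading probe set, a difference of -0.30. Its second probe set read 6.31 and 6.33, a difference of 0.02, so the probe sets disagreed. RXRB differed by 0.06, 0.04 and 0.03 in its 3 probe sets, the leading one at 8.36 and 8.42. RXRG, at 3.77 and 3.62, was below the median of all probe sets in both arrays.

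Receptors for retinoic acid, thyroid hormone and vitamin D differed little. RARA, the retinoic acid receptor alpha gene, was higher in all 5 probe sets by 0.02 to 0.14, with the leading one at 6.89 and 6.91. This leading probe set has the cross-hybridisation suffix. RARB, a retinoic acid receptor whose own gene is a retinoic acid target, read 6.32 and 6.33, but its 5 probe sets ran from -0.35 to 0.27. RARG read 7.28 and 7.22. The thyroid hormone receptor gene THRB was higher in all 3 probe sets, by 0.10, 0.04 and 0.22, from a leading value of 6.82 in the empty vector array. THRA read 5.41 and 5.48, while a dimmer THRA probe set at 4.47 and 4.03 differed by -0.43. VDR, the vitamin D receptor gene, read 5.61 and 5.89, a difference of 0.29, whereas its 3 other probe sets, all dim, differed by 0.00, -0.03 and -0.25. VDR therefore had no direction common to its probe sets.

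Among receptors for fatty acids, oxysterols and xenobiotics, PPARA had the largest positive difference. PPARA, which turns on fatty acid oxidation in liver, stood at 8.02 with the empty vector and 8.32 with miR-130b. A second probe set read 7.58 and 7.96, a difference of 0.38, and over 9 probe sets 6 were higher and 3 lower, from -0.13 to 0.38. PPARD, a widely expressed fatty acid receptor, read 8.60 and 8.72, and its 4 probe sets differed by between -0.18 and 0.30. PPARG, the adipogenic receptor whose transcript is a reported target of the miR-130 family, has 1 probe set here. It read 8.63 with the empty vector and 8.50 with miR-130b, a difference of -0.12, and 19.3% of all genes were at least as much lower. The oxysterol receptor gene NR1H3, or LXR alpha, differed by 0.04 in its 1 probe set, at 7.64 with miR-130b. The constitutive androstane receptor gene NR1I3 read 4.47 in both arrays in its leading probe set, and its second probe set read 3.41 and 3.70, all below the median of all probe sets.

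The steroid receptor genes above that median were higher by small amounts. NR3C1, the glucocorticoid receptor gene, stood at 11.24 with the empty vector and 11.40 with miR-130b. Its 5 probe sets differed by 0.16, 0.06, 0.44, 0.20 and 0.35, all above 0, and 7.51% of the 706 genes with 5 probe sets had all of them above 0. The leading NR3C1 probe set has the cross-hybridisation suffix, and the one without a suffix, at 8.06 and 8.41, is that with 0.35. ESR1, the estrogen receptor alpha gene, read 6.01 and 6.30, and 8 of its 9 probe sets were higher, but its leading probe set has the cross-hybridisation suffix. Without suffixed probe sets the ESR1 difference was 0.06, from a probe set at 3.90 and 3.96, below the median of all probe sets in both arrays. ESR2 read 4.99 and 5.09, with its 6 probe sets between -0.19 and 0.10. The mineralocorticoid receptor gene NR3C2, at 4.47 and 4.75, and the progesterone receptor gene PGR, at 3.87 and 3.58, were below the median of all probe sets in both arrays.

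The remaining orphan receptors lay within 1.5-fold in their leading probe sets. NR6A1, or germ cell nuclear factor, a repressor of pluripotency genes, read 7.95 with the empty vector and 8.05 with miR-130b. All 7 of its probe sets were higher, by 0.01 to 0.56, and 2.92% of the 171 genes with 7 probe sets had all of them higher. The NR6A1 probe sets at both ends of that range have the cross-hybridisation suffix, and those without a suffix differed by 0.08 to 0.23. NR2F6, a relative of NR2F1 also called EAR2, read 10.14 and 10.02, with differences of -0.12, -0.29 and 0.03. NR2F6 thus had a much smaller difference than NR2F1. The testicular receptor genes NR2C1 and NR2C2 differed by 0.05 and 0.08, at 7.52 and 8.31 in the empty vector array. ESRRA, which controls mitochondrial genes with PPARGC1 coactivators, read 8.10 and 8.12. ESRRG, at 4.48 and 4.46, was below the median of all probe sets.

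Of the clock receptors, NR1D2, or REV-ERB beta, a repressor within the circadian loop, read 6.07 and 6.12. RORA, the activator that competes with it for the same DNA elements, was below the median in all 8 of its probe sets, which differed by between -0.20 and 0.12. NR0B2 encodes SHP, which lacks a DNA-binding domain and represses LRH-1 and other receptors in bile acid feedback. It stood at 6.11 with the empty vector and 5.83 with miR-130b, a difference of -0.28 from 1 probe set, and 6.51% of all genes were at least as much lower.

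Probe sets of a gene often did not share a sign. Of the 28 genes with several probe sets, all were lower for 3, NR5A2, NCOA2 and PGR, and all were higher for 8, RXRB, RARA, THRB, NR2C2, NR3C1, NR6A1, NR1D2 and NRIP1. The other 17 had mixed signs or an exact tie. Over the array, 1689 of 10523 such genes had all probe sets lower and 2319 all higher. Of the 34 genes, 26 were at or above the median level in both arrays, NR2F1 and PPARGC1B in 1 array only, and 6 in neither.

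**Figure D3:**
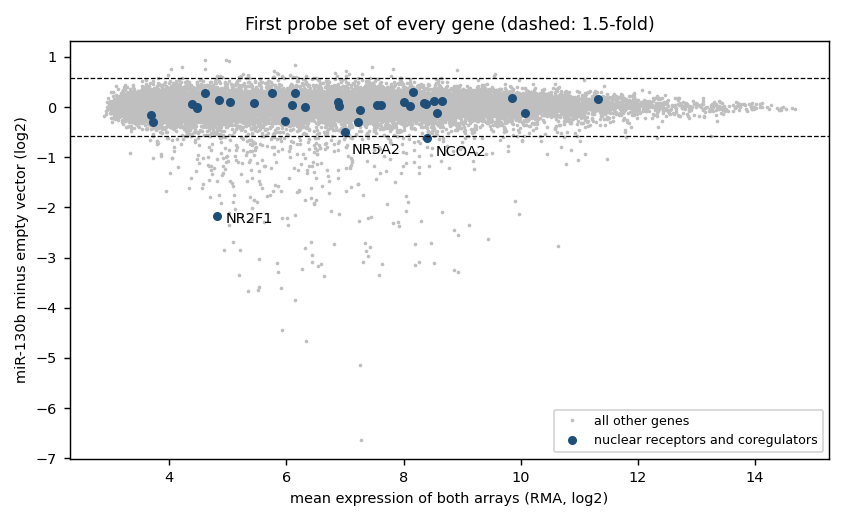
Difference (miR-130b minus empty vector, log2) against the mean expression of both arrays (RMA, log2) for the leading probe set of every gene, with the 34 receptor and coregulator genes in blue and dashed lines at 1.5-fold. NR2F1 lies at -2.16 and NCOA2 just past the lower line at -0.62, NR5A2 lies just inside it, and the other blue points stay in the band of grey points.

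Genes that act with these receptors or respond to them were taken as 12 lists of 132 genes, of which 122 were on the array with a probe set of their own. Of these 122, 7 were lower by at least 1.5-fold with miR-130b and 1 was higher by that much, with a median of -0.01. That is 5.74% lower and 0.820% higher, beside 1.91% and 0.212% of all genes. The lists were chosen with earlier results of these data known, so their shares cannot show whether such genes differ more often than others. The 7 lower genes were spread over 5 lists. The 1 higher gene, NR4A3, belongs to the NR4A subfamily, which was left out of the main gene list.

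Among 10 glucocorticoid receptor target genes, 2 were lower by at least 1.5-fold and 0 higher by as much, with a list median of -0.05. SGK1, a kinase that acts on ion channels, stood at 8.50 with the empty vector and 6.28 with miR-130b, 4.65-fold lower. The metallothionein gene MT2A stood at 11.04 and 8.91, 4.39-fold lower, from a probe set with the cross-hybridisation suffix. The 8 others lay between -0.18 and 0.14, among them FKBP5, an immunophilin induced by glucocorticoids, at 8.80 and 8.93, TSC22D3, the gene of the glucocorticoid-induced leucine zipper, at 8.13 and 8.18, and DUSP1, a phosphatase of MAP kinases, which differed by -0.04.

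Of 11 bile acid and FXR pathway genes, 2 were lower by at least 1.5-fold, 0 were higher by as much and the median was -0.20. Only 5 of the 11 were at or above the median of all probe sets with the empty vector, and 4 with miR-130b. The list median is the value of a dim gene, ABCB11, at 4.72 and 4.52, whose second probe set differed by 0.46. SULT2A1, a sulfotransferase of bile acids and steroids, stood at 5.54 with the empty vector and 4.48 with miR-130b. Only the control value is above the median of all probe sets, so this difference carries no exact fold either. The name of this probe set ends in _s_at, a suffix dropped in an alternative described below. The second SULT2A1 probe set differed by -0.52. FGF19, the hormone that carries the bile acid signal, stood at 6.04 and 5.45, a difference of -0.59. KLB, its coreceptor, stood at 9.09 and 8.77, with -0.69 in a second probe set. NR0B2, another FXR target, was lower by the amount given above, whereas SLC51B, a bile acid exporter subunit, read 10.57 and 10.68.

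In the other lists the genes past 1.5-fold were single ones. Of 8 retinoic acid receptor target genes, CYP26B1, which degrades retinoic acid, stood at 6.31 with the empty vector and 4.77 with miR-130b. The miR-130b value is below the median of all probe sets, so the difference of -1.54 carries no exact fold. The second CYP26B1 probe set, near that median, differed by -0.08. Its relative CYP26A1 read 4.96 and 5.03. Of 7 PXR and CAR target genes, the efflux pump gene ABCB1 stood at 6.80 and 5.97, with -0.10 in a dim second probe set, while CYP3A4, a drug-oxidising enzyme gene, read 7.58 and 7.57. Of 14 PPAR target genes, EHHADH, a peroxisomal fatty acid oxidation enzyme, differed by -0.73 but was below the median of all probe sets in both arrays, at 4.56 and 3.83. ACADM, CPT1A and PDK4, which serve mitochondrial fuel use, differed by 0.33, 0.24 and 0.25, and PLIN2, a lipid droplet protein, by -0.40. Of the 3 other CPT1A probe sets, 1 was past 1.5-fold, at 5.82 with the empty vector and 6.52 with miR-130b, and the other two differed by 0.40 and -0.04.

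The remaining receptors and partners stayed within 1.5-fold, apart from NR4A3. Of 9 other nuclear receptor genes, NR4A3 stood at 8.54 with the empty vector and 9.27 with miR-130b, a difference of 0.74, with 0.45 and 0.13 in its 2 other probe sets. NR2E1 and HNF4G differed by 0.44 and 0.30, but NR2E1 was below the median of all probe sets in both arrays and the second HNF4G probe set differed by 0.00. Of 21 further coregulators, 0 passed 1.5-fold, with the acetyltransferase gene EP300 at 0.28, PPARGC1A at 0.30 and the arginine methyltransferase gene PRMT1 at -0.22. The 7 chaperones and cochaperones that hold steroid receptors ready for ligand lay between -0.15, for STIP1, and 0.00, for PTGES3. Of 10 LXR target genes, 0 passed 1.5-fold. The sterol transporter gene ABCG8 differed by 0.41 but was below the median of all probe sets in both arrays, at 4.41 and 4.82. The phospholipid transfer protein gene PLTP differed by -0.34 and SREBF1, a regulator of lipid synthesis, by -0.21. Of 7 vitamin D and thyroid hormone target genes, 0 passed 1.5-fold, with CYP24A1, which degrades vitamin D, at 0.29. Of 4 estrogen target genes, 0 passed it, with GREB1 at 0.21 but -0.16 and -0.03 in its other probe sets. Of 14 circadian clock genes, 0 passed 1.5-fold, with DBP at 0.27, NPAS2 at -0.26, or -0.67 in a dimmer probe set, and BHLHE40 at 0.25.

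**Figure D4:**
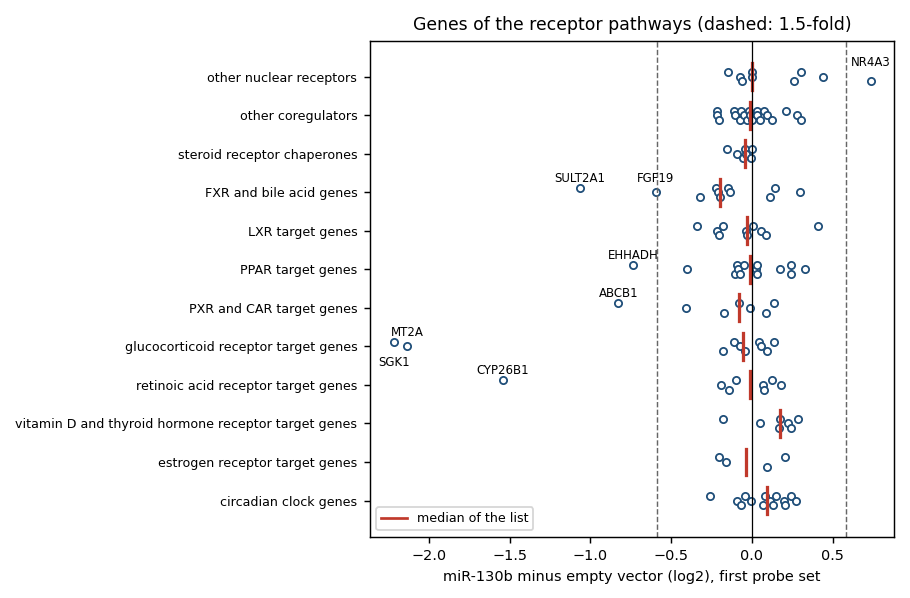
Difference (miR-130b minus empty vector, log2) of the leading probe set of each gene in 12 lists of receptor partners and target genes, with red bars for list medians and dashed lines at 1.5-fold; points are spread vertically only to keep them apart. The medians lie between -0.20 and 0.17, and the named genes beyond the lines are SGK1, MT2A, CYP26B1, SULT2A1, ABCB1, EHHADH and FGF19 on the lower side and NR4A3 on the higher side.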

How the data were processed

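Total RNA of 2 samples, 1 per group, was hybridised to expression arrays. The authors deposited a log2 value per probe set and array, and the submitters' processing notes name RMA without a version. Its settings were not given in the sources used here. Column medians were 4.89 (empty vector) and 4.88 (miR-130b). Groups were taken from sample titles.

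GEO's annotation of the platform named the probe sets. Of the 54613 that are no controls, 41091 had 1 symbol, 1801 several and 11721 none; Entrez identifiers of 41037 were found in RefSeq. Differences and counts were computed over all 19775 genes with no floor on dim values, so that every gene found is counted. With 1 array a group, no test was run. The number of arrays limits the precision. The genes, lists and rules were chosen with earlier results of these data known. The text names all receptor and coregulator genes found and, from each list, genes beyond 1.5-fold or otherwise those with the largest differences; any list gene named beyond that rule was chosen after its values were seen. The alternatives were 3 floors, the mean of a gene's probe sets, dropping those whose names end in _x_at or _s_at, centring by loess (span 0.3) or the median and, added later, raising dim values to the median. Code was checked on simulated arrays. Python 3.11.15, numpy 2.4.6, pandas 2.3.3, statsmodels 0.14.6 and matplotlib 3.10.9 were used.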

Additional observations from a re-analysis of the deposited data

How the results depend on the processing

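With the floor at the median on the brighter array, without suffixed probe sets and with loess or median centring, 2 receptor and coregulator genes stayed at least 1.5-fold lower, 1 at least 2-fold lower and 0 higher. With that floor on the mean of both arrays, NR2F1 was no longer kept, which left 1 gene at least 1.5-fold lower and 0 at least 2-fold lower; the floor at the 75th percentile (6.98) also gave 1 and 0. With the mean of probe sets, 1 gene, NR2F1, was at least 1.5-fold lower, since NCOA2 had -0.39. The median difference ran from 0.01 to 0.06. Of the list genes, 2 rather than 7 were lower with the floor at the 75th percentile, where fewer genes are kept, and 0 rather than 1 were higher with the mean of probe sets. Without suffixed probe sets, SULT2A1 was within 1.5-fold at -0.52 and MT2A had no probe set left. NPAS2 was then past 1.5-fold at -0.67, since its leading probe set has a suffix. No paired analysis was possible because each group has 1 array. With values below the median raised to it, an alternative chosen after seeing the data, the counts of 2, 1 and 0 stood and 6 list genes were lower. Signal near background limits NR2F1 in the miR-130b array.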

Other observations

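The clock repressor gene NR1D1 lies opposite THRA on the same chromosome, and 3 probe sets carry both symbols, so they name neither gene. They read 7.61 and 7.65, 5.77 and 5.90, and 4.70 and 4.78 on the log2 scale in the empty vector and miR-130b arrays, with differences of 0.05, 0.13 and 0.08.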
